A study of Homo sapiens with 6 samples.

Results

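The BCL2 family decides whether mitochondria release the proteins that start apoptosis, and 10 of its genes were followed in RNA sequencing of a human colorectal cancer cell line after siRNA against the lncRNA GLCC1. The members were a fixed list of gene symbols, 3 anti-apoptotic genes (BCL2L1, BCL2L2 and MCL1), 2 effectors (BAX and BAK1) and 5 BH3-only genes (BID, BAD, BIK, BCL2L11 and BMF), out of 56638 symbols in the count files. All 10 had enough counts to be tested, among 23074 tested genes. There were 3 libraries titled control siRNA, from cells given a nonspecific siRNA, and 3 titled lncRNA-AF339830 siRNA, the deposited name of GLCC1. Both groups were grown in RPMI-1640 with serum, and the labels give no genetic change besides the siRNA. The cell line is SW480 by the sample labels and DLD-1 by the methods of the study, and which of these it was could not be settled. The groups used here follow the titles, source names and genotypes. The library names run the other way, with AF123 in the names of those titled control and NC in those titled GLCC1 siRNA, and if they were right every fold change below would keep its size and turn its sign. No label says whether the 3 libraries of a group came from separate cultures, so p-values measure the spread between these libraries, which may be technical. The titles number the libraries siRNA1 to siRNA3 in both groups while every genotype label ends in siRNA1, so the labels do not settle whether these numbers are replicates, as taken here, or different siRNAs. In bulk RNA fewer cells with a transcript and less of it per cell cannot be told apart.

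Anti-apoptotic members such as MCL1 and BCL-XL, the main product of BCL2L1, hold BAX and BAK in check at the outer mitochondrial membrane. BH3-only proteins are the sensors of the family. They bind the anti-apoptotic members, or BAX and BAK directly, and free the effectors to open the membrane, after which cytochrome c leaves and caspases are activated. In the colon this balance bears on the death of epithelial cells and the response of tumours to drugs. MCL1 and BCL-XL are the members that colorectal cancer cells are best known to rely on.

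The libraries held from 11948790 to 19042516 read pairs assigned to a gene, of which from 8913 to 16720 fell on the 10 members. The smallest library, GLCC1 siRNA replicate 2 (siRNA2 in its title), stood apart from the other libraries of its group. Its chi-square per degree of freedom against them was between 16.3 and 17.1, where the other pair of that group gave 3.07 and pairs of control libraries between 1.84 and 3.84. Its share of read pairs on no annotated gene was 14.2%, against 11.2% to 12.7% in the other 5 libraries. Results are therefore also given without it. GLCC1 has no row of its own in the files. FARP1, the annotated gene around the GLCC1 locus, was at 58.6% of its control level under GLCC1 siRNA (edgeR adjusted p = 9.2e-06), which does not check the knockdown of GLCC1 itself. The epithelial origin of the cells was checked on 9 markers, of which 8 had a mean of at least 1 CPM (counts per 1000000, scaled with TMM factors) while KRT20 did not. Their summed level was between 5551 and 6073 CPM in the controls and between 2210.2 and 2615 CPM under GLCC1 siRNA, and 6 of the 9 fell. Most of the sum was keratin, with KRT8 alone at a mean of 3584 CPM in the controls. KRT8, KRT18 and KRT19 fell to 32.9%, 28.3% and 39.5% of control. EPCAM, CDH1 and CDX1 fell less, to 81.0%, 69.1% and 51.3%. VIL1 was at 116% and CDX2 at 84.7%, neither passing the test (edgeR adjusted p = 0.067 and 0.055). Of 8 markers of immune, endothelial and stromal cells, PTPRC and PECAM1 had no count in any library. COL1A1 and DES were detected, at means of 13.4 and 12.9 CPM in the controls and 7.38 and 4.55 CPM under GLCC1 siRNA. The list summed to between 25.3 and 30.4 CPM in the controls and between 10.8 and 15.7 CPM under GLCC1 siRNA. COL1A1 and DES made up most of it and were the 2 falls among 4 tested genes. The part of these changes in the results on the BCL2 family was not tested.

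The study concerns c-Myc, whose dimer with MAX binds the E-box CACGTG, so the promoters of the members were searched for that word, which reads the same on both strands. RefSeq promoter windows on GRCh38.p14, of which the 250 bases before each annotated start were used, were matched by symbol for 7 members, with 14 windows between them. BCL2L2, MCL1 and BIK had no entry. Of all 35116 RefSeq windows of that length, 6.34% hold CACGTG. Among the members it was found in BAX, at 4 places, and in BID, at a site that lies in 2 overlapping windows of its 5. In BAX the words begin 138, 93, 45 and 14 bases before the start. Of the 35116 windows, 5 (0.0142%) hold the word at 4 or more places. The cut-off of 4 is the number in BAX itself, so this share tests nothing. The windows of BAX and BID are shown for these E-boxes, in capitals, and the first window of BMF is shown because BMF had the largest fall of the 10 genes and no E-box in it. A match is a description of the letters and not a binding site.

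BAX, chr19:48954625-48954874, plus strand: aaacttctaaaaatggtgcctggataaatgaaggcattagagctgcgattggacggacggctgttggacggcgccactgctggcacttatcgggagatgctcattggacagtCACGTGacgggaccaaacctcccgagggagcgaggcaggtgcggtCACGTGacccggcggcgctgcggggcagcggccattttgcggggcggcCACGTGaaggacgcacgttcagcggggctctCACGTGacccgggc
BID, chr22:17773984-17774233, minus strand: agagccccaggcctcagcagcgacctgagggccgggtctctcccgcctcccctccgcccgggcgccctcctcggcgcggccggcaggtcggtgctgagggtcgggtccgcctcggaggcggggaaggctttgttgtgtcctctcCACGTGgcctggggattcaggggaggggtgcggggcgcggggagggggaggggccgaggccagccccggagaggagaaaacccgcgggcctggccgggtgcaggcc
BMF, chr15:40108880-40109129, minus strand: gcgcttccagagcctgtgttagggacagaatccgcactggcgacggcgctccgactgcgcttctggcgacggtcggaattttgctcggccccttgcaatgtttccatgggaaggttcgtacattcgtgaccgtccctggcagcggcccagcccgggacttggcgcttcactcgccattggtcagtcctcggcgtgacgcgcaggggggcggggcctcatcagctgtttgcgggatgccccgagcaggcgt

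The 3′ UTRs of the members were searched for words that pair with the first bases of the guide strand of the study's GLCC1 siRNA 1, since an siRNA can also act on messenger RNAs that match these bases. The labels do not settle which of the study's siRNAs was sequenced. The target of siRNA 1 in the GLCC1 sequence is shown with the last 8 bases, which pair with bases 1 to 8 of the guide, in capitals. MCL1 was the only one of the 10 members whose canonical 3′ UTR in GENCODE 44 held either of the 7-base words ACCTTGA and CCTTGAA, searched on the transcript strand. Among 13463 tested genes with a 3′ UTR of at least 50 bases, 20.2% held at least one of these overlapping words. The MCL1 site is on the minus strand of GRCh37, at chr1:150548330-150548336, with the word in capitals.

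siRNA 1 target: ggaagagcaacACCTTGAA
MCL1 3′ UTR site: ttcctgtccttCCTTGAAattgctgattg

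Of the 10 members, 6 fell under GLCC1 siRNA and none passed the test upwards, with an adjusted p under 0.05 over all tested genes from edgeR's quasi-likelihood test (for upward calls, 0 with edgeR and 0 with DESeq2). The 6 were BMF, BAX, BAD, MCL1, BAK1 and BIK. No member had an unadjusted p under 0.05 upwards. Of all 23074 tested genes, 31.6% passed the same threshold, 16.7% downwards and 14.9% upwards. Genes as abundant as the members passed more often: of 10790 genes with a mean at or above the 8.18 CPM of BAD, the lowest member, 49.7% passed, 29.5% downwards and 20.2% upwards, so a count of 6 in 10 lies near that background. The median log2 fold change of the members was -0.41, against 0.03 over all tested genes and -0.07 over the genes as abundant. In 7 members the 3 GLCC1 siRNA libraries lay wholly below the 3 control libraries, as was seen in 24.0% of all tested genes and in 37.5% of the genes as abundant. Separation in either direction was seen in 46.3% and 63.6% of them. For a single gene, an exact permutation test of 3 libraries against 3, two-sided, cannot fall below p = 0.1.

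**Figure D1:**
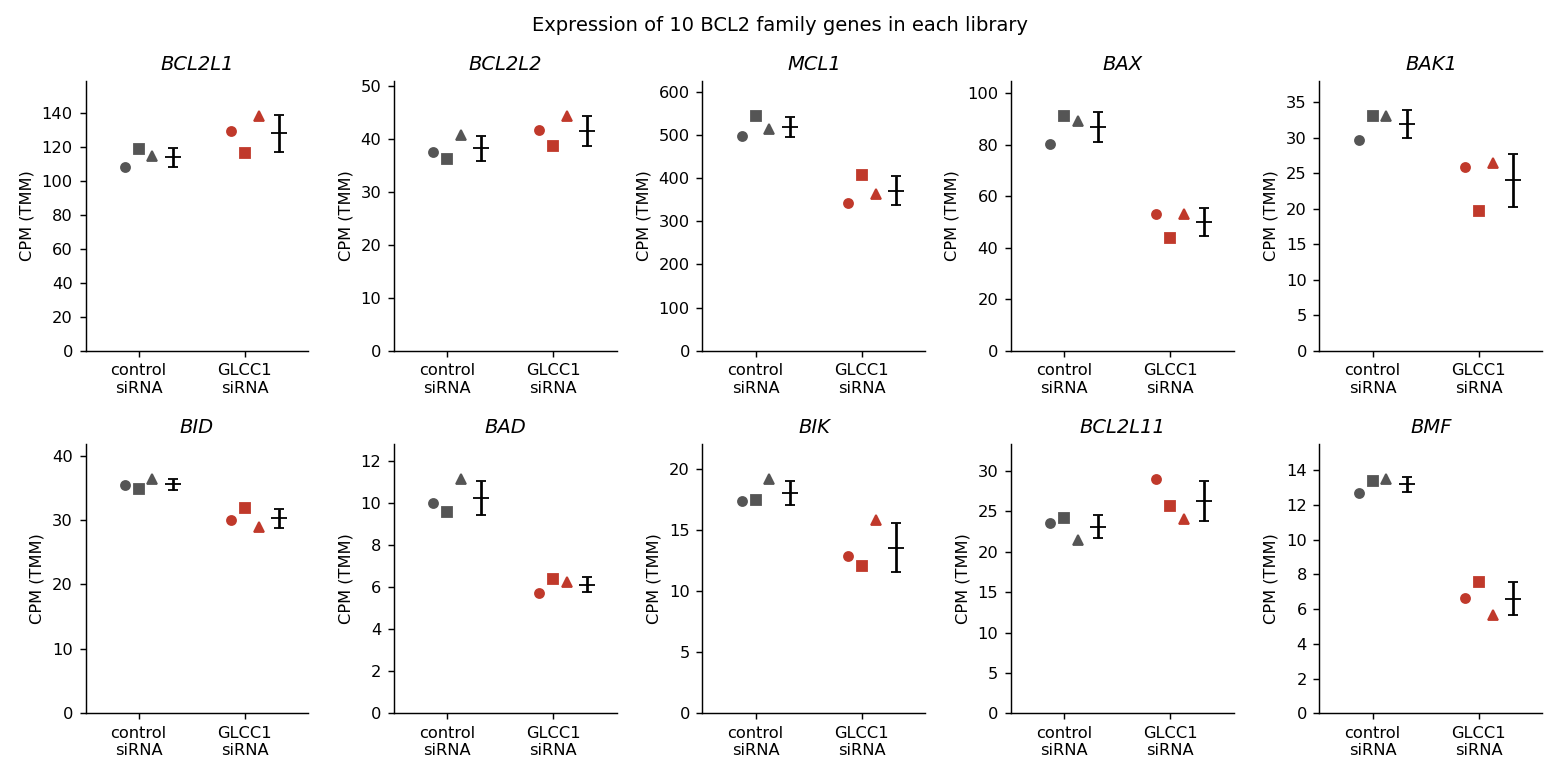
Level of each member in every library, in CPM with TMM factors on a linear axis from 0. Circles, squares and triangles are replicates 1, 2 and 3, grey for control siRNA and red for GLCC1 siRNA, and black bars give the mean and SD of 3 libraries. In BAX, BAD, BMF, MCL1, BAK1, BIK and BID every red point lies below every grey point, and in BCL2L1, BCL2L2 and BCL2L11 the groups overlap.

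Among the anti-apoptotic members, MCL1 fell while BCL2L1 and BCL2L2 did not pass the test. MCL1, a short-lived guardian that binds BAK and most BH3-only proteins, is encoded at chr1:150533371-150552214 (minus strand, GRCh37 here and for each gene position given next) by 3 exons of its canonical transcript. It had 497, 543 and 513 CPM in control replicates 1, 2 and 3 and 342, 407 and 362 CPM in GLCC1 siRNA replicates 1, 2 and 3. Every GLCC1 siRNA library was below every control library, and replicate 2 was the highest of its group. The log2 fold change was -0.48 (standard error, SE, of 0.08, edgeR adjusted p = 6.5e-04), or 71.5% of the control level with a 95% interval from 63.0% to 81.2%. BCL2L1, which encodes BCL-XL (chr20:30252255-30311792, minus strand), had 108, 119 and 115 CPM in the controls and 129, 116 and 138 CPM under GLCC1 siRNA. The groups overlapped because GLCC1 siRNA replicate 2 lay within the control range. Its log2 fold change was 0.17 (SE 0.09, edgeR adjusted p = 0.17), with an interval from 98.5% to 128% of control. BCL2L2, which encodes BCL-W (chr14:23767999-23780960, plus strand), had between 36.3 and 40.9 CPM in the controls and between 38.7 and 44.4 CPM under GLCC1 siRNA. Its log2 fold change was 0.12 (SE 0.10, edgeR adjusted p = 0.36), with an interval from 94.3% to 126% of control. Both intervals include no change. In GENCODE 44, 41.3% of the exon bases of BCL2L1 overlap ABALON, which is not a symbol of the files, while 24.8% of those of BCL2L2 are shared with other genes, among them the readthrough gene BCL2L2-PABPN1 on the same strand. In the union mode of HTSeq, read pairs on bases shared with another gene of the counting annotation count for neither gene. Whether read pairs were lost to ABALON, absent by that name, or to genes on the opposite strand is not known.

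Of the effectors, which form the pore in the outer mitochondrial membrane, both BAX and BAK1 fell. BAX (chr19:49458072-49465055, plus strand, 6 exons) had 80.2, 91.0 and 89.0 CPM in the controls. It had 52.9, 43.7 and 53.0 CPM under GLCC1 siRNA, all below the lowest control library. The log2 fold change was -0.80 (SE 0.10, edgeR adjusted p = 4.7e-05), or 57.6% of control with an interval from 49.6% to 66.9%. No exon base of BAX is shared with another gene in GENCODE 44. BAK1 (chr6:33540324-33548070, minus strand) had 29.7, 33.0 and 33.0 CPM in the controls and 25.8, 19.6 and 26.5 CPM under GLCC1 siRNA. Its log2 fold change was -0.41 (SE 0.12, edgeR adjusted p = 0.019). The call was lost without control siRNA replicate 2 (adjusted p = 0.082) and without control siRNA replicate 3 (adjusted p = 0.086). BAK1P1, a pseudogene copy of BAK1 with which it may share read pairs, was at -0.43 on the log2 scale, and with its counts added the log2 fold change of BAK1 was -0.41 (edgeR adjusted p = 0.012, an alternative chosen after the data were seen).

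The BH3-only members differed among themselves. BMF, a sensor that is tethered to the cytoskeleton through a dynein light chain and is linked to loss of attachment, had the largest fall of the 10 members. The gene (chr15:40380091-40401093, minus strand) had 185, 243 and 224 read pairs in the controls, or 12.7, 13.4 and 13.5 CPM. In the GLCC1 siRNA libraries it had 127, 95 and 101 read pairs, or 6.62, 7.56 and 5.65 CPM. The groups lay far apart relative to their spread, and the log2 fold change was -1.01 (SE 0.14, edgeR adjusted p = 7.7e-05), or 49.7% of control with an interval from 40.6% to 60.8%. BAD, whose binding to BCL-XL is switched off by phosphorylation (chr11:64037302-64052176, minus strand), had 10.0, 9.59 and 11.1 CPM in the controls and 5.74, 6.36 and 6.26 CPM under GLCC1 siRNA. It fell to 59.6% of control (log2 fold change -0.75, SE 0.13, edgeR adjusted p = 7.4e-04). Of the exon bases of BAD, 23.7% are shared with GPR137 on the opposite strand, and the strand setting of the counting is not given in the sources used here.

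BIK, a BH3-only protein of the endoplasmic reticulum (chr22:43506756-43525718, plus strand), had 17.3, 17.5 and 19.2 CPM in the controls and 12.8, 12.01 and 15.8 CPM under GLCC1 siRNA. Its log2 fold change was -0.40 (SE 0.12, edgeR adjusted p = 0.024). The groups did not overlap, but the call was lost without control siRNA replicate 1, 2 or 3 and without GLCC1 siRNA replicate 1 (adjusted p = 0.056, 0.062, 0.12 and 0.089 in turn). BID, which caspase-8 cleaves to carry a death receptor signal to mitochondria (chr22:18216904-18257536, minus strand), had 35.4, 34.8 and 36.4 CPM in the controls and 30.0, 31.9 and 28.9 CPM under GLCC1 siRNA. All GLCC1 siRNA libraries were below the controls, yet BID missed the threshold, with a log2 fold change of -0.23 (SE 0.09, edgeR adjusted p = 0.073). BCL2L11, which encodes BIM, a strong activator of BAX and BAK (chr2:111876955-111926021, plus strand), had 23.6, 24.2 and 21.4 CPM in the controls and 29.0, 25.7 and 24.1 CPM under GLCC1 siRNA. The groups overlapped narrowly, and its log2 fold change was 0.19 (SE 0.11, edgeR adjusted p = 0.21), with an interval from 96.9% to 134% of control.

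Without GLCC1 siRNA replicate 2 all 10 members passed the threshold, with 7 falls and 3 rises. The background rose too, since 44.1% of the 22470 genes then tested passed. The log2 fold changes of BCL2L1, BCL2L2 and BCL2L11 were then 0.24, 0.17 and 0.21 (adjusted p = 3.5e-04, 0.042 and 0.049 from edgeR), and that of BID was -0.26 (adjusted p = 0.0027). The direction of every member was that of the 6 libraries. Library totals as the only normalization raised the median log2 fold change of all genes by 0.12. Under it 62.9% of all calls were rises, against 47.0% with TMM factors. Of the members, BMF, BAX, BAD and MCL1 still fell (log2 fold changes of -0.89, -0.67, -0.62 and -0.36). BAK1 and BIK lost their calls (adjusted p = 0.077 and 0.093), and BCL2L1 and BCL2L11 passed upwards, at 0.29 and 0.31 on the log2 scale, which is 0.14 and 0.16 above the median of all genes.

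**Figure D2:**
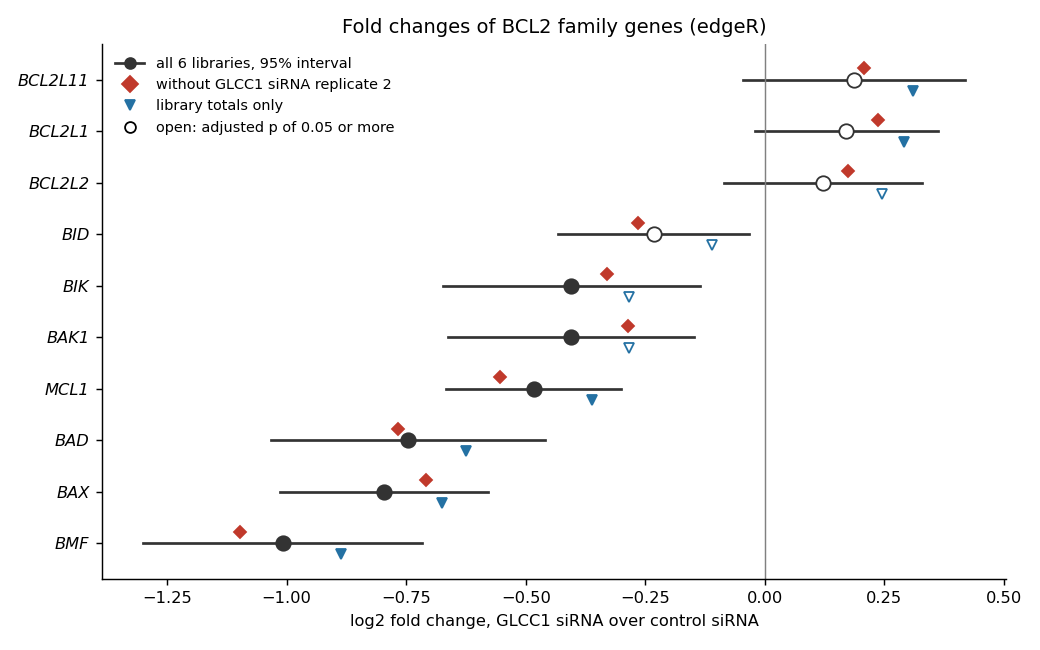
Log2 fold change of each member, GLCC1 siRNA over control siRNA, from edgeR. Black points with lines are the fit of 6 libraries with 95% intervals, red diamonds the fit without GLCC1 siRNA replicate 2 and blue triangles the fit with library totals only, with open symbols at an adjusted p of 0.05 or more. BMF, BAX, BAD and MCL1 are filled and below 0 in each of these fits, while BCL2L11, BCL2L1 and BCL2L2 are above 0 in each.

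To set the members beside each other, CPM were divided by the length of the union of each gene's exons in GENCODE 44, which counts every annotated isoform. On this scale of CPM per kb, MCL1 had the highest level, 83.2 ± 3.76 (SD, n = 3) in the controls and 59.5 ± 5.39 (SD, n = 3) under GLCC1 siRNA. BAX came next in the controls at 33.5 ± 2.24 (SD, n = 3), ahead of BCL2L1 at 27.1 ± 1.29 (SD, n = 3), and no control library of BCL2L1 reached the lowest of BAX. In the GLCC1 siRNA libraries their places were exchanged, with BCL2L1 at 30.5 ± 2.61 and BAX at 19.3 ± 2.07 (SD, n = 3), again with no overlap. The exchange rests on the exon lengths used, 2587 bases for BAX and 4197 for BCL2L1. In CPM without this division BCL2L1 was above BAX in both groups. The means were 114 against 86.7 in the controls and 128 against 49.9 under GLCC1 siRNA. BIK and BAK1 held the next places in both groups. At the low end were BAD, BCL2L11 and BMF, with BMF last at 2.42 ± 0.081 (SD, n = 3) in the controls and 1.21 ± 0.17 (SD, n = 3) under GLCC1 siRNA. Of the 9 pairs of neighbours in the order, only BID and BCL2L2 overlapped in the controls, while BAK1 with BCL2L2 and BCL2L11 with BAD overlapped under GLCC1 siRNA.

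**Figure D3:**
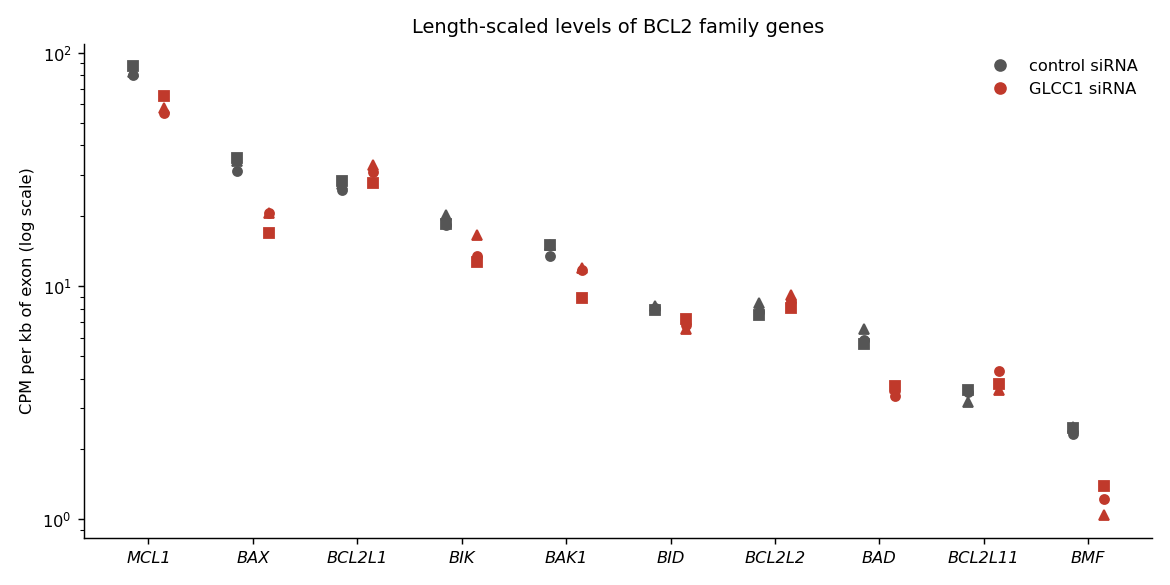
Length-scaled level of each member in every library, in CPM per kb of exon on a log axis, ordered by the control mean. Grey points are control siRNA and red points GLCC1 siRNA libraries, with circles, squares and triangles for replicates 1, 2 and 3. On this scale BAX stands above BCL2L1 in grey and below it in red, while in CPM without length scaling BCL2L1 is the higher in both groups.

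Summed on the same scale, the 3 anti-apoptotic genes gave 113, 123 and 118 CPM per kb in the controls and 94.4, 101 and 100.2 under GLCC1 siRNA. The effector pair gave 44.4, 50.1 and 49.3 in the controls and 32.1, 25.8 and 32.4 under GLCC1 siRNA. The 5 BH3-only genes gave 37.9, 37.9 and 40.5 in the controls and 29.1, 28.8 and 31.4 under GLCC1 siRNA. None of these sums overlapped between the groups, and each was lower under GLCC1 siRNA. Of single genes as abundant as the members, 37.5% also lay wholly lower. The sums follow their highest genes: BIK made up 18.9 of the 38.8 CPM per kb of the BH3-only mean in the controls. BCL2L1, BCL2L2 and BCL2L11 had higher means under GLCC1 siRNA, without passing the test, and BCL2 was not part of the sums. MCL1 made up between 69.7% and 70.9% of the anti-apoptotic sum in the controls and between 58.1% and 64.7% under GLCC1 siRNA.

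Ratios of raw counts within a library do not depend on how libraries are scaled, and 5 were computed after the members' values were seen, as a description without a test. BAX had 74.3, 76.8 and 77.7 counts for each 100 counts of BCL2L1 in the controls and 40.9, 37.6 and 38.4 under GLCC1 siRNA, where GLCC1 siRNA replicate 2 lay close to the others. For each 100 counts of MCL1, BAX had 16.1, 16.8 and 17.4 in the controls and 15.5, 10.7 and 14.6 under GLCC1 siRNA, so that replicates 1 and 3 lay just under the controls. BCL2L1 had 21.7, 21.8 and 22.3 counts for each 100 counts of MCL1 in the controls and 37.9, 28.5 and 38.1 under GLCC1 siRNA. Among the BH3-only genes, BMF had 53.8, 55.4 and 62.9 counts for each 100 counts of BCL2L11 in the controls and 22.8, 29.4 and 23.5 under GLCC1 siRNA. Between the effectors, BAX had between 269.7 and 276 counts for each 100 counts of BAK1 in the controls and between 200.2 and 222 under GLCC1 siRNA.

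**Figure D4:**
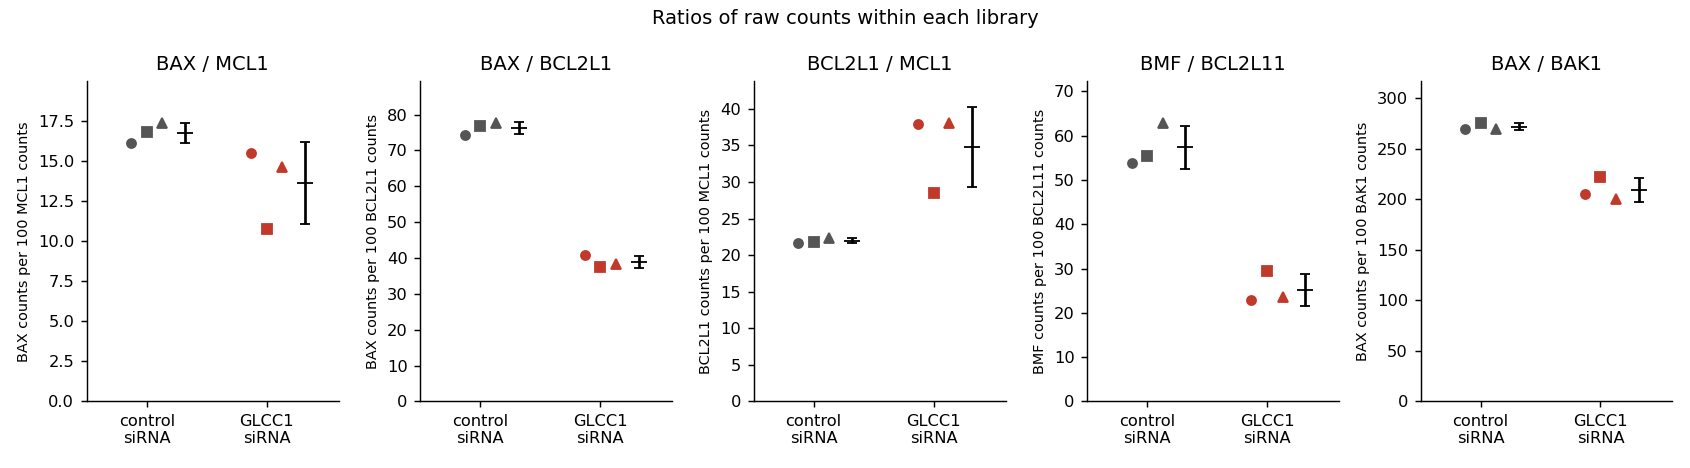
Ratios of raw counts between members within each library, as counts of the first gene for each 100 counts of the second, on linear axes from 0. Grey is control siRNA and red GLCC1 siRNA, with symbols for replicates 1, 2 and 3 and black bars for the mean and SD of 3 libraries. The ratio of BAX to BCL2L1 averages 76.3 in the controls and 39.0 under GLCC1 siRNA. The groups do not overlap in any of the 5 ratios, but the pairs were picked with the members' values known, so that count tests nothing.

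Of 13 further genes of the family, 12 were tested, since BCL2L10 had at most 2 counts in a library. BCL2 rose, and BCL2L14, BOK and BCL2L12 fell, while the other 8 did not pass, so that 4 of 12 were called beside 31.6% of all tested genes. The median of the 12 was -0.20, against 0.03 for all tested genes. BCL2, the founding anti-apoptotic gene, had 6.17, 7.66 and 7.41 CPM in the controls and 9.70, 13.6 and 9.90 under GLCC1 siRNA. All GLCC1 siRNA libraries were above the controls, with a log2 fold change of 0.62 (SE 0.16, edgeR adjusted p = 0.0085). BOK, an effector relative of BAX and BAK, had 42.7, 45.8 and 43.5 CPM in the controls and 27.5, 23.6 and 30.8 CPM under GLCC1 siRNA, -0.68 on the log2 scale (adjusted p = 2.9e-04). BCL2L14 had a log2 fold change of -0.93 (adjusted p = 0.0017) at 5.59 ± 0.79 CPM (SD, n = 3) in the controls. BCL2L12 had 57.7, 29.3 and 49.2 CPM under GLCC1 siRNA against 65.1 ± 4.03 (SD, n = 3) in the controls. Its call (adjusted p = 0.040) was lost without any of the 3 control libraries, one at a time, and without GLCC1 siRNA replicate 3, with adjusted p between 0.052 and 0.15. It was also lost with library totals only (adjusted p = 0.098) and with at least 10 counts in every library (adjusted p = 0.063), and without GLCC1 siRNA replicate 2 the log2 fold change went from -0.51 to -0.28. The p53-induced BH3-only genes did not pass with the 6 libraries. BBC3, which encodes PUMA, had a log2 fold change of -0.43 (adjusted p = 0.092), with 16.0, 10.98 and 21.5 CPM under GLCC1 siRNA, and without replicate 3 of that group it fell by 0.68 on the log2 scale (adjusted p = 0.0068). BBC3 also passed as a fall with the replicate number as a block (adjusted p = 0.047) and with a filter of at least 1 count in any library (adjusted p = 0.0037). PMAIP1, which encodes NOXA, a partner of MCL1, had a log2 fold change of -0.05 (adjusted p = 0.75). BNIP3L and BNIP3, known for mitophagy, had -0.15 and -0.29 (adjusted p = 0.30 and 0.32). Without GLCC1 siRNA replicate 2, BNIP3L fell by 0.27 (adjusted p = 7.3e-05). BCL2L13 and BCL2L15 had log2 fold changes of 0.11 and -0.25 (adjusted p = 0.37 and 0.29). HRK was under 1 CPM in every library, with a log2 fold change of -0.03 and an interval from 53.3% to 180.1% of control. BCL2A1 was at most at 0.313 CPM, and a change in it was not detectable at this depth.

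Downstream of the mitochondria, 13 genes of cytochrome c release and the caspase cascade were tested, of which 1 rose and 5 fell, with a median log2 fold change of -0.21. These 6 calls in 13 compare with 31.6% of all tested genes and 49.7% of genes as abundant as the members. CYCS, which encodes cytochrome c, rose from 158 ± 10.1 CPM (SD, n = 3) to 219 ± 29.4 CPM (SD, n = 3), or 0.47 on the log2 scale (edgeR adjusted p = 0.0025). VDAC1 and VDAC2, channels of the outer mitochondrial membrane, had log2 fold changes of -0.56 and -0.52 (adjusted p = 7.9e-05 and 0.0065), and VDAC2, on which BAK depends for its place in the membrane, had 38.4, 25.2 and 32.8 CPM under GLCC1 siRNA against 46.4 ± 0.57 (SD, n = 3) in the controls. HTRA2, a mitochondrial protease that binds inhibitors of apoptosis once released, had a log2 fold change of -0.36 (adjusted p = 0.033). Its call was lost without control siRNA replicate 1, 2 or 3 (adjusted p = 0.094, 0.072 and 0.12 in turn). VDAC3 and CASP2 fell too, with log2 fold changes of -0.35 and -0.31 (edgeR adjusted p = 0.0055 and 0.017). The count of falls was 2 with library totals only, 3 without control siRNA replicate 1 and 3 without control siRNA replicate 2, and the count of rises was 4 with library totals only, 3 without GLCC1 siRNA replicate 2 and 2 without GLCC1 siRNA replicate 3.

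All 5 inhibitor of apoptosis genes were tested, of which 2 rose and 2 fell. The share called was 31.6% over all tested genes and 49.7% over genes as abundant as the members. XIAP, a direct caspase inhibitor, had 93.8, 123 and 89.8 CPM under GLCC1 siRNA against 63.3 ± 0.88 (SD, n = 3) in the controls (log2 fold change 0.69, edgeR adjusted p = 4.0e-04). BIRC5, or survivin, a gene of dividing cells, had a log2 fold change of 0.56 (adjusted p = 4.9e-04). BIRC3 and BIRC6 had -0.64 and -0.52 (adjusted p = 0.0054 and 4.1e-04).

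In the death receptor arm, which reaches the family through BID, 10 of 11 genes were tested and 2 rose and 1 fell, with TNFSF10 at no more than 2 counts in any library. A count of 3 in 10 lies near the 31.6% of all tested genes and below the 49.7% of genes as abundant as the members. CASP8, the protease that cleaves BID, had 39.2, 39.3 and 40.1 CPM in the controls and 73.4, 76.5 and 62.9 CPM under GLCC1 siRNA, a log2 fold change of 0.84 (SE 0.10, edgeR adjusted p = 2.2e-05). The TRAIL receptors moved in opposite directions, with log2 fold changes of 0.22 for TNFRSF10B and -0.35 for TNFRSF10A (adjusted p = 0.041 and 0.022). The calls of both receptors were lost without control siRNA replicate 1 (adjusted p = 0.18 and 0.12), without control siRNA replicate 2 (0.11 and 0.066) and without GLCC1 siRNA replicate 3 (0.11 and 0.051). That of TNFRSF10B was also lost without control siRNA replicate 3 (0.11), and that of TNFRSF10A without GLCC1 siRNA replicate 1 (0.074). Leaving out GLCC1 siRNA replicate 2 gave 5 calls in this arm, 4 of them rises, and leaving out control siRNA replicate 1 or 2 or GLCC1 siRNA replicate 3 gave 1.

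Among 12 genes whose products act on the members or bind them, 4 rose and 2 fell, a count near the 49.7% called among genes as abundant as the members and above the 31.6% of all tested genes. HUWE1, or MULE, a ubiquitin ligase for MCL1, was at 558 ± 4.08 CPM (SD, n = 3) in the control and 374 ± 27.9 CPM (SD, n = 3) under GLCC1 siRNA, a log2 fold change of -0.58 (edgeR adjusted p = 9.1e-05). BTRC, a subunit of another ligase that acts on MCL1, had a log2 fold change of 0.79 (adjusted p = 2.2e-05). DYNLL2, the dynein light chain that binds BMF, rose from 105 ± 2.71 CPM (SD, n = 3) to 176 ± 3.02 CPM (SD, n = 3), or 0.74 on the log2 scale (adjusted p = 8.6e-06), whereas BMF itself fell. PIM1, a kinase that phosphorylates BAD, had a log2 fold change of -0.65 (adjusted p = 5.3e-04). The other genes of this list that rose were FBXW7 and the kinase gene AKT1, with log2 fold changes of 0.55 and 0.48 (adjusted p = 5.3e-04 and 0.0032).

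**Figure D5:**
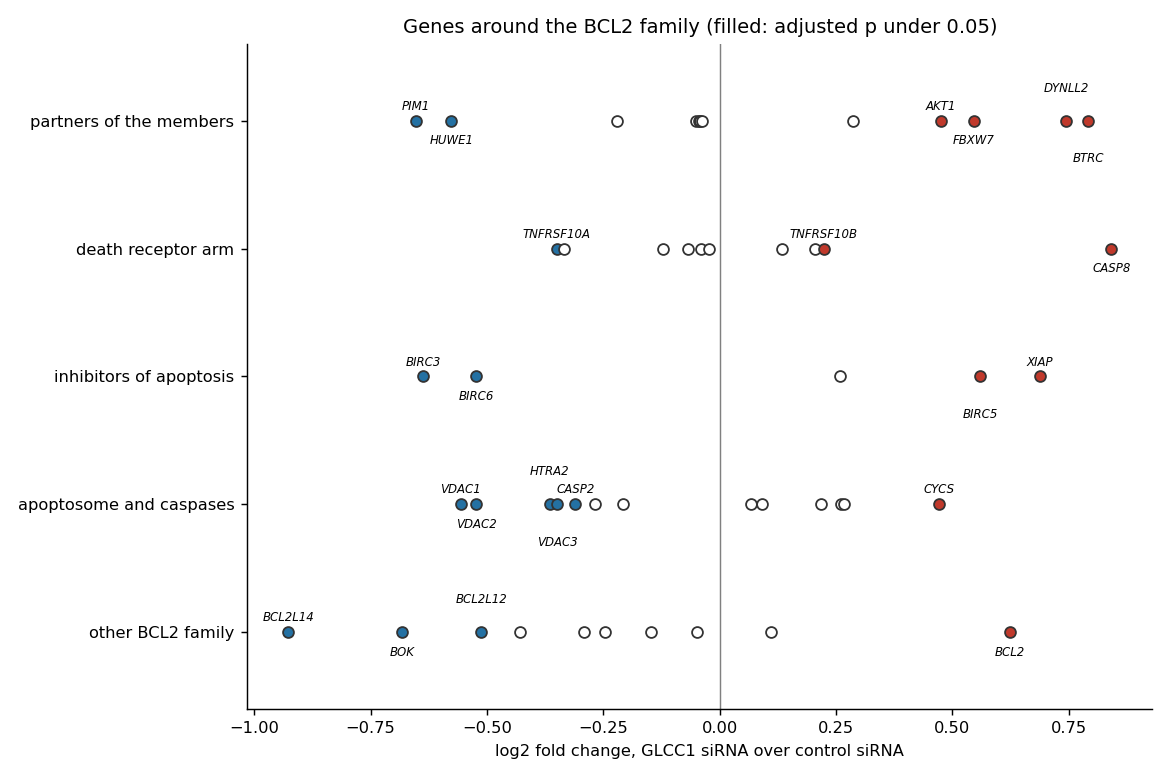
Log2 fold changes, GLCC1 siRNA over control siRNA, of the tested genes in 5 lists around the members, 1 point per gene with a mean of at least 1 CPM. Filled red points rose and filled blue points fell with an adjusted p under 0.05, and open points did not pass. BCL2L14 lies furthest below 0, at -0.93, and CASP8 furthest above, at 0.84, and each list holds both red and blue points.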

How the data were processed

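Each of the 6 libraries has 1 file, in which the authors deposited the count of read pairs for every gene symbol as whole numbers without normalization. Reads were mapped to hg19 with TopHat 2.0.11 and counted with HTSeq in union mode. Read pairs on bases that the counting annotation gives to more than 1 gene are thereby left out. The tallies of reads without a gene were removed before fitting, and read pairs on no feature were between 11.2% and 14.2% of those assigned, ambiguous or on no feature.

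A gene was left out where neither group reached 5 counts in sum, following the study's methods. Counts were scaled with TMM factors and compared with the robust quasi-likelihood test of edgeR 4.0.16 under R 4.3.3, with Benjamini-Hochberg adjustment over all tested genes. Standard errors are the log2 fold change over the root of the F statistic, and 95% intervals use the total degrees of freedom of the fit. The study used DESeq2, which was an alternative here (version 1.42.0). The members and gene lists were chosen with earlier results of these data known. All 10 members and every tested gene of the further family list were named. From each other list the 4 genes furthest from 0 were named at most, provided that they were called, averaged 1 CPM or more and had separate group ranges. FBXW7, AKT1, VDAC3 and CASP2 were added to these so that every call of their lists is given. Exon lengths, positions and 3′ UTRs came from GENCODE 44 on GRCh37, which is not the annotation the authors counted on. Each group has 3 libraries, and counts per library ran from 80 to 185 for BAD and from 5120 to 9854 for MCL1, with the precision of a gene resting on its counts and on the spread between libraries. Alternatives were other normalizations, filters, a replicate block and each library left out in turn. One listed gene is not reported here. Calculations outside R used Python 3.11.15. Correlations of deviations between same-numbered libraries were all negative. With 3 libraries in a group they cannot settle whether the numbers pair the libraries.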

Additional observations from a re-analysis of the deposited data

How the results depend on the processing

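Across the alternatives, 122 log2 fold changes of the 10 members were computed again and all 122 kept their direction, while 108 stayed on the same side of the threshold. Under scaling by library totals alone, the log2 fold changes whose calls changed were 0.29 for BCL2L1, 0.31 for BCL2L11, -0.28 for BAK1 and -0.28 for BIK, and 2 members rose. In the same setting 4 genes of the caspase list rose and 2 fell, and 0 of the death receptor arm fell. Of the caspase list, 2 genes rose with DESeq2. So did 2 of that list with a filter of at least 1 count in any library and 2 with at least 10 counts in every library. A filter of at least 1 count in any library left 1 rise in the death receptor arm. The correlations of same-numbered deviations were between -0.32 and -0.01, and those of other pairs between -0.27 and 0.29. With 3 libraries in a group these values cannot settle whether the replicate numbers of the titles pair the libraries. With the replicate number as a block 6 members fell and 0 rose, and 1 gene of the death receptor arm was called, a rise, with 0 falls. With each library left out in turn, between 4 and 10 members were called, between 4 and 7 fell and between 0 and 3 rose. Log2 fold changes then ran from 0.12 to 0.24 for BCL2L1, from 0.076 to 0.17 for BCL2L2, from 0.11 to 0.25 for BCL2L11, from -0.26 to -0.20 for BID, from -0.48 to -0.29 for BAK1 and from -0.53 to -0.33 for BIK. In the caspase list between 1 and 3 genes rose and between 3 and 6 fell. In the death receptor arm between 1 and 5 were called, between 1 and 4 rose and between 0 and 1 fell. For the 27 other genes named by the rules above, without FBXW7, AKT1, VDAC3 and CASP2, 321 log2 fold changes were recomputed. Of these, 22 lost their call, 4 gained one and 0 turned with a call in the main fit or the alternative. Some uncalled values did turn, as PMAIP1 (-0.05 to 0.07) and HRK (-0.03 to 0.09) with library totals only. DESeq2 called 6 members, all of them falls. The causes of these shifts were not tested. Grouping by the library names was not run, since it exchanges the groups and turns every sign. The low counts of BCL2A1 and BCL2L10 limit what depth can show for them.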
